A study of Mus musculus with 14 samples.

Results

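Adiponectin, leptin, resistin and the proteins by which a fat cell takes up, binds, stores and releases fuel were followed in the growing mouse mammary gland at 5 ages. The set was named as 10 genes: the hormones Adipoq, Lep, Retn and Cfd, the fatty acid handling genes Lpl and Fabp4, the lipid droplet and lipolysis genes Plin1 and Lipe, and Slc2a4 and Gpd1 of glucose uptake and glycerol supply. Their probe sets (groups of short probes for 1 transcript) were taken by symbol, as those whose platform annotation named exactly 1 of the 10. That rule found 16 probe sets for 8 genes, among 22690 probe sets and 12393 genes named in all. Cfd and Plin1 were not analysed here. Adipoq, Lep, Retn and Lipe had 1 probe set each, Lpl and Slc2a4 had 2, and Fabp4 and Gpd1 had 4.

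The glands were the 4th inguinal mammary glands, whole, of untreated female mice of CD1, an outbred strain, with the lymph nodes taken out. As far as the labels say, groups differed by age only: 3, 4, 5, 6 and 7 weeks, with 3 arrays (A, B and C) at each age except 5 weeks, which had A and B, 14 arrays in all. The RNA of an array was a pool of 3 or more mice, and the labels do not say whether pools had mice in common. The p-values therefore rest on how far pools of an age differed. The series title places these ages in puberty.

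White adipocytes keep triglyceride in 1 large droplet, and in the mouse mammary gland they form the fat pad into which the epithelial ducts grow. Lipoprotein lipase and fatty acid binding protein bring fatty acids in, glycerol-3-phosphate from Gpd1 gives the backbone on which they are esterified, and hormone-sensitive lipase helps to release them again. Adiponectin and leptin are secreted by the same cells, and leptin output is known to follow the size of the fat store, while adiponectin is known to be lower in obesity.

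Every value is a ratio of a probe set on an array to that probe set's own median over the 14 arrays. A ratio of 1 is therefore the middle of the series for that probe set, and ratios compare ages within a probe set, never the level of 1 gene with another. Changes are log2 differences between ages with the standard error (SE) of a limma fit. A probe set is called where its Benjamini-Hochberg adjusted p over the 18480 tested probe sets was under 0.05. Array medians ran from 0.953 to 1.02, and the number of arrays limits the precision. Ratios do not show how much fat a gland held, but each of the 8 genes had at least 1 probe set above the filter on low signal.

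The RefSeq promoter table (build GRCm38.p6) held 4 of the 8 genes: Lep, Adipoq, Retn and Lipe. Fabp4, Lpl, Slc2a4 and Gpd1 had no entry. The 250 bases before the start are given here for Lep, Adipoq and Retn, the hormone genes of the set. Capitals mark matches, on either strand, to 4 motifs. These are the E-box, spelled CANNTG, the C/EBP letters TTGCNNAA, the single nuclear receptor site, which reads AGGTCA, and the core promoter box TATAAA.
Lep, chr6:29059971-29060220, + strand: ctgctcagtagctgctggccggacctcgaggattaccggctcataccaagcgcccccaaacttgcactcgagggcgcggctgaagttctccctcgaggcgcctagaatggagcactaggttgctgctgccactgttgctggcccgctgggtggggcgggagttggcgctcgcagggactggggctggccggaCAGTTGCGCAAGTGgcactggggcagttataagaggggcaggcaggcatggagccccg
Adipoq, chr16:23146286-23146535, + strand: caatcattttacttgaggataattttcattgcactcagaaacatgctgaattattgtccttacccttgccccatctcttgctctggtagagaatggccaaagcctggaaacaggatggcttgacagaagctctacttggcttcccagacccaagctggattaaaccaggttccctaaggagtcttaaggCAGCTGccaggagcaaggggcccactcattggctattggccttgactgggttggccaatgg
Retn, chr8:3655520-3655769, + strand: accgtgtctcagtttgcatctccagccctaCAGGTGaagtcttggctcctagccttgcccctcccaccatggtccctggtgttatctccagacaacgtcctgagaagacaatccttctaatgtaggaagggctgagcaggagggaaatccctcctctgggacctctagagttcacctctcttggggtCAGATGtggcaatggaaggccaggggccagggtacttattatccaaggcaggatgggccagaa

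In Lep the capitals hold 1 C/EBP match, which begins 55 bases before the start, and 2 E-box matches, beginning at 58 and 50 bases, which overlap it from either side. Adipoq held 1 E-box match, at 61 bases, and Retn 2, at 220 and 63. Lipe has 2 starts in the table, both on the − strand of chromosome 7, with 2 E-box matches (155 and 20 bases before the start) at chr7:25395988-25396237 and 1 (110 bases) at chr7:25390113-25390362. Neither AGGTCA nor TATAAA was found in these 5 windows, which says only that those letters are not there. Of 32851 promoter windows of the same 250 bases in the table, 66.2% held an E-box match, 14.0% AGGTCA, 12.4% TATAAA and 9.56% the C/EBP letters. A match is a description of the letters and not a site.

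Over the 5 ages, 9 of the 15 tested probe sets were called by the F test, in 5 genes (Gpd1, Slc2a4, Fabp4, Lpl and Lipe), where 10.3% of all tested probe sets were. Adipoq (adjusted p = 0.105), Retn (0.19) and Lep (0.228) were not. Between the ages of highest and lowest mean, the 9 called probe sets differed by 1.40-fold (Lpl, 1415904_at) to 7.18-fold (Gpd1, 1416204_at). With 1 array left out the count was between 5 (without 4 weeks A or 4 weeks B) and 8, and 6 without 4 weeks C, 7 weeks B or 7 weeks C. Whether a change reflects fewer adipocytes in the gland or less of an RNA in each adipocyte cannot be told apart in RNA from whole glands.

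**Figure D1:**
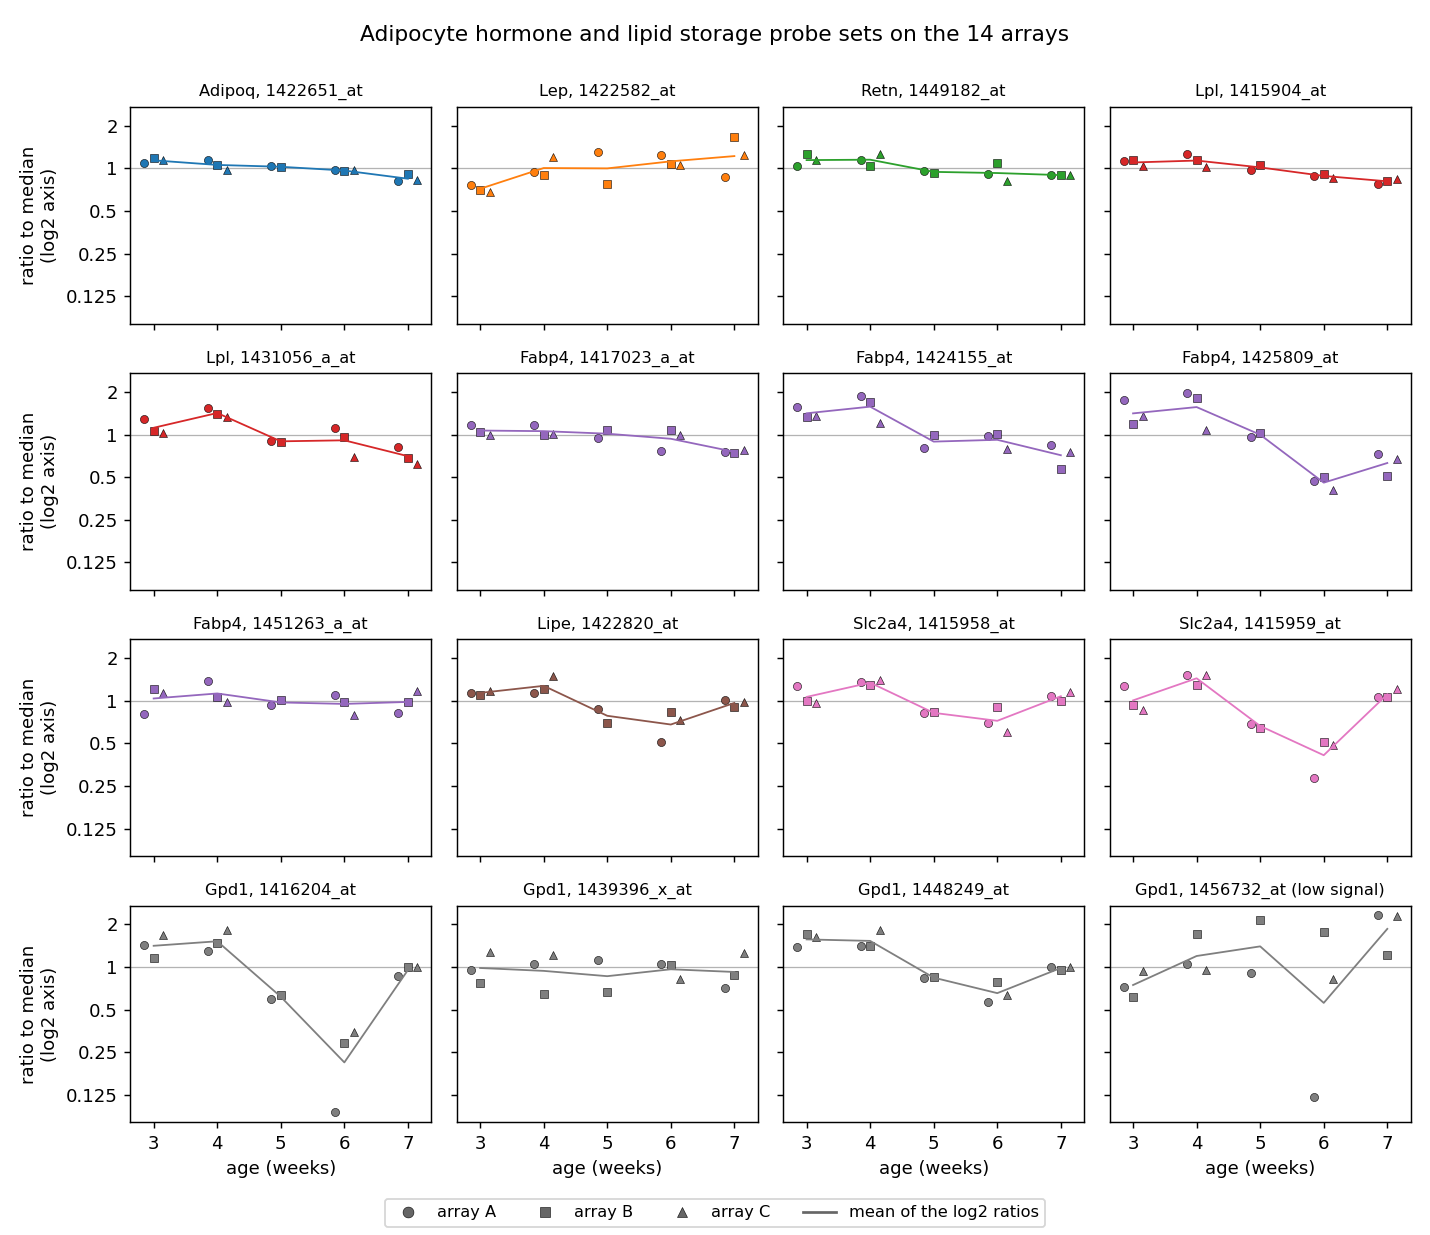
Ratio to the probe set's median over the arrays (log2 axis) against age in weeks, 1 panel for each of the 16 probe sets; circles, squares and triangles are arrays A, B and C and the line joins the means of the log2 ratios. Lep is lowest at 3 weeks, Adipoq and Lpl are lowest at 7 weeks, and Gpd1 (1416204_at, 1448249_at), Slc2a4 and Lipe are lowest at 6 weeks.

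Among the hormones, Adipoq fell from 3 to 7 weeks, Lep was higher on every later array than on any 3-week array, and Retn did not pass a test. Adipoq encodes adiponectin, the most abundant secreted protein of white fat. Its ratios were 1.09, 1.19 and 1.14 on 3 weeks A, B and C, 1.15, 1.06 and 0.979 at 4 weeks and 1.03 and 1.02 on 5 weeks A and B. They were 0.970, 0.958 and 0.973 at 6 weeks and 0.811, 0.907 and 0.824 at 7 weeks. The 7-week arrays lay below all others, and the 3-week arrays overlapped with those of 4 weeks only. The change from 3 to 7 weeks was −0.43 (SE 0.11), adjusted p = 0.0292 by limma, which is 1.35-fold lower. The call was lost without 3 weeks B, 3 weeks C, 7 weeks A or 7 weeks C (adjusted p from 0.0703 to 0.0968), with a change of −0.40 to −0.48 in every fit that left out 1 array.

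Lep encodes leptin, the hormone that reports fat stores to the brain. Its ratios were 0.767, 0.708 and 0.683 at 3 weeks, 0.937, 0.899 and 1.21 at 4 weeks and 1.30 and 0.773 at 5 weeks. They were 1.25, 1.07 and 1.06 at 6 weeks and 0.874, 1.67 and 1.25 at 7 weeks. The 3 arrays of 3 weeks were the 3 lowest of the series, while the arrays of 4 to 7 weeks overlapped with each other. The difference from 3 weeks was 0.49 (SE 0.25) at 4 weeks, 0.48 (SE 0.27) at 5 weeks, 0.64 (SE 0.25) at 6 weeks and 0.77 (SE 0.25) at 7 weeks. None was called by limma (adjusted p = 0.538, 0.408, 0.105 and 0.0791). The 7-week arrays spread widely, from 0.874 to 1.67, and without 7 weeks A, the lowest of them, 7 weeks against 3 weeks was called (adjusted p = 0.0345).

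Retn encodes resistin, which in mice is made by fat cells. It had ratios of 1.03, 1.26 and 1.15 at 3 weeks, 1.16, 1.05 and 1.27 at 4 weeks and 0.967 and 0.926 at 5 weeks. At 6 weeks they were 0.908, 1.09 and 0.810 and at 7 weeks 0.895, 0.893 and 0.904. The 7-week arrays were close together and below all of those at 3 and 4 weeks, but the 6-week arrays spread from 0.810 to 1.09. The change from 3 to 7 weeks was −0.35 (SE 0.14) and was not called (adjusted p = 0.146).

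Set against Adipoq on the same array, Lep was higher at 7 weeks than at 3 weeks. Here the log2 ratio of Adipoq was subtracted from that of every probe set, so that each value is a change beyond that of 1 adipocyte gene. Lep minus Adipoq was −0.51, −0.75 and −0.74 at 3 weeks, −0.29, −0.23 and 0.31 at 4 weeks and 0.33 and −0.40 at 5 weeks. It was 0.36, 0.16 and 0.13 at 6 weeks and 0.11, 0.88 and 0.60 at 7 weeks. The 3-week values were the lowest 3 of the 14, and those of 6 and 7 weeks were all above 0. Lep rose by 1.20 (SE 0.25) relative to Adipoq, 2.30-fold, with adjusted p = 0.00455, and the call was kept in each of the 14 fits that left out 1 array. Fabp4 at 1425809_at was the only other of the 14 probe sets called, at −0.73 (SE 0.24, adjusted p = 0.0343). That call was lost without 3 weeks A or C or 7 weeks B or C, with adjusted p up to 0.116. Since Adipoq itself fell, 37.5% of all 18479 probe sets were called higher and 0.725% lower by this measure, so a call upwards is common and does not set Lep apart from other genes.

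**Figure D2:**
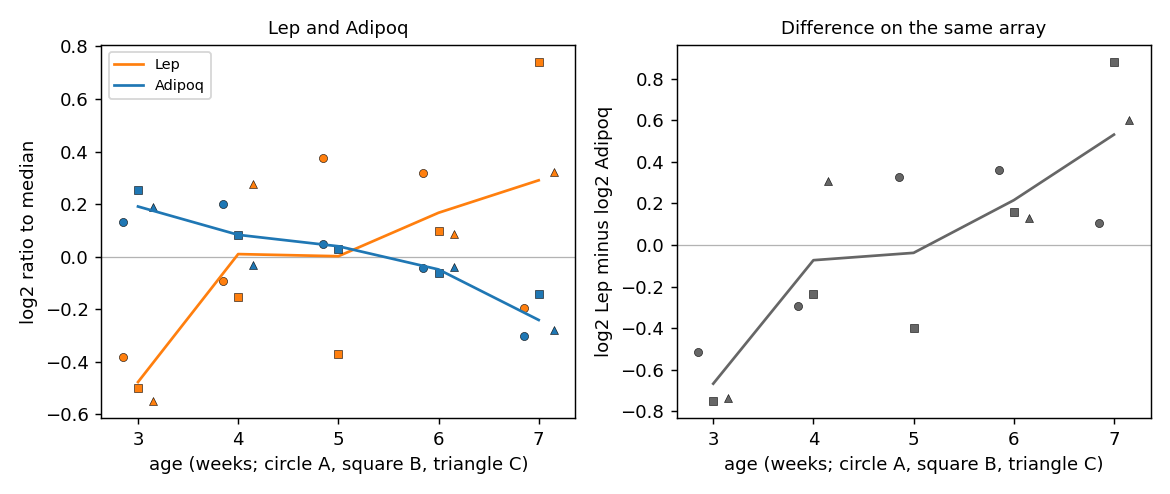
Left, log2 ratio to the median of Lep and Adipoq against age in weeks; right, the difference between them on the same array; circles, squares and triangles are arrays A, B and C and lines join the means. The 3-week differences lie at −0.51, −0.75 and −0.74 and the 7-week ones at 0.11, 0.88 and 0.60.

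Of the genes for bringing fatty acids into the cell, both probe sets of Lpl and 2 of the 4 of Fabp4 fell from 3 to 7 weeks. Lpl encodes lipoprotein lipase, which frees fatty acids from circulating triglyceride. At 1415904_at its ratios were 1.12, 1.14 and 1.05 at 3 weeks, 1.26, 1.14 and 1.02 at 4 weeks, 0.976 and 1.06 at 5 weeks, 0.885, 0.909 and 0.863 at 6 weeks and 0.781, 0.814 and 0.840 at 7 weeks. The 6-week and 7-week arrays were all below all others, and every 7-week array was below every 6-week one. From 3 to 7 weeks it fell by 0.44 (log2, SE 0.11; adjusted p = 0.0323), a 1.36-fold change. At 1431056_a_at the ratios were 1.28, 1.06 and 1.03 at 3 weeks, 1.55, 1.39 and 1.34 at 4 weeks, 0.908 and 0.887 at 5 weeks, 1.12, 0.969 and 0.698 at 6 weeks and 0.820, 0.685 and 0.623 at 7 weeks. Here the 4-week arrays were the highest of the series, and it fell by 0.67 from 3 to 7 weeks (SE 0.18; adjusted p = 0.0432). The first call was lost without any 1 of the 3-week or 7-week arrays, and the second in 12 of the 14 fits (all but those without 6 weeks A or C), with adjusted p up to 0.102 and 0.143. As the mean of both probe sets, Lpl fell by 0.55 (SE 0.12; adjusted p = 0.0174 over the 10672 genes).

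Fabp4 encodes the fatty acid carrier of the adipocyte cytoplasm, and its 4 probe sets did not move alike. At 1424155_at the ratios were 1.57, 1.33 and 1.36 at 3 weeks, 1.89, 1.71 and 1.22 at 4 weeks, 0.803 and 0.994 at 5 weeks, 0.975, 1.01 and 0.794 at 6 weeks and 0.843, 0.576 and 0.755 at 7 weeks. All arrays of 3 and 4 weeks were above all later ones, and the fall from 3 to 7 weeks of 0.98 (SE 0.20; adjusted p = 0.0118) was called in each fit that left out 1 array. At 1425809_at they were 1.75, 1.20 and 1.34 at 3 weeks, 1.96, 1.83 and 1.07 at 4 weeks, 0.964 and 1.04 at 5 weeks, 0.473, 0.500 and 0.406 at 6 weeks and 0.730, 0.508 and 0.676 at 7 weeks. Here the lowest arrays were those of 6 weeks: it fell by 1.63 from 3 to 6 weeks (SE 0.24; adjusted p = 0.00159) and by 1.17 from 3 to 7 weeks (SE 0.24; adjusted p = 0.0123). The second of these was lost without 7 weeks B (adjusted p = 0.0502).

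The remaining pair of Fabp4 probe sets was called in no comparison. At 1417023_a_at the ratios were 1.17, 1.05 and 1.0 at 3 weeks, 1.17, 0.998 and 1.02 at 4 weeks, 0.950 and 1.09 at 5 weeks, 0.767, 1.07 and 0.994 at 6 weeks and 0.753, 0.741 and 0.776 at 7 weeks. The change from 3 to 7 weeks was −0.50 (SE 0.14) with adjusted p = 0.0547, and every 7-week array lay below every 3-week one. At 1451263_a_at the arrays of each age overlapped with those of every other, from 0.796 to 1.39, and the same change was −0.08 (SE 0.21). Over the 14 arrays 1424155_at and 1425809_at had a Pearson correlation of 0.840 and 1417023_a_at and 1451263_a_at one of 0.105, given as descriptions, since probe sets share the arrays and the ages. As the mean of its 4 probe sets Fabp4 fell by 0.64 (SE 0.15; adjusted p = 0.0165) from 3 to 6 weeks and by 0.68 (SE 0.15; 0.0155) from 3 to 7 weeks.

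Lipe encodes hormone-sensitive lipase, which hydrolyses stored glycerides when the cell is stimulated. Its ratios were 1.14, 1.11 and 1.17 at 3 weeks and 1.14, 1.21 and 1.50 at 4 weeks. They were 0.883 and 0.697 at 5 weeks, 0.516, 0.837 and 0.730 at 6 weeks and 1.02, 0.904 and 0.984 at 7 weeks. All arrays of 3 and 4 weeks were above all later ones, the arrays of 5 and 6 weeks overlapped, and those of 7 weeks lay between the groups, above all of 5 and 6 weeks. From 3 to 6 weeks it fell by 0.74 (SE 0.18; adjusted p = 0.0215), a call lost without 3 weeks A, 3 weeks C or 6 weeks A (adjusted p up to 0.0652). The change from 6 to 7 weeks of 0.51 (SE 0.18) was not called (adjusted p = 0.24).

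Slc2a4 encodes GLUT4, the glucose transporter that insulin brings to the surface of fat and muscle cells. At 1415959_at its ratios were 1.27, 0.939 and 0.858 at 3 weeks, 1.51, 1.30 and 1.53 at 4 weeks, 0.685 and 0.645 at 5 weeks, 0.284, 0.511 and 0.485 at 6 weeks and 1.06, 1.07 and 1.21 at 7 weeks. The 6-week arrays were the lowest of the series, and the 7-week arrays lay within the range of 3 weeks. It fell by 1.29 from 3 to 6 weeks (SE 0.22; adjusted p = 0.00373) and rose by 1.43 from 6 to 7 weeks (SE 0.22; adjusted p = 0.0155). At 1415958_at they were 1.27, 0.996 and 0.961 at 3 weeks, 1.35, 1.29 and 1.40 at 4 weeks, 0.816 and 0.830 at 5 weeks, 0.699, 0.902 and 0.599 at 6 weeks and 1.09, 1.0 and 1.15 at 7 weeks. The order of the ages was the same with smaller steps: the fall from 3 to 6 weeks was 0.56 (SE 0.16; adjusted p = 0.0412), and the rise from 6 to 7 weeks of 0.58 was not called (0.138). The fall at 1415958_at was lost without any 1 array but 6 weeks B (adjusted p up to 0.129). Between 3 and 7 weeks the changes were 0.14 (SE 0.22) and 0.02 (SE 0.16), and neither was called.

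Gpd1 encodes the cytosolic glycerol-3-phosphate dehydrogenase, which supplies the glycerol backbone of triglyceride. At 1416204_at it had the widest span of age means in the set, 7.18-fold, against 3.50-fold for Slc2a4 at 1415959_at. The other tested Gpd1 probe sets spanned 2.40-fold at 1448249_at and 1.14-fold at 1439396_x_at. At 1416204_at its ratios were 1.44, 1.16 and 1.69 at 3 weeks, 1.31, 1.48 and 1.82 at 4 weeks, 0.596 and 0.639 at 5 weeks, 0.0940, 0.290 and 0.349 at 6 weeks and 0.865, 1.0 and 0.997 at 7 weeks. The groups of 3 and 4, 5, 6 and 7 weeks did not overlap, and 6 weeks A was lower than any other array. It fell by 2.74 from 3 to 6 weeks (SE 0.39; adjusted p = 0.0013), 6.67-fold, and rose by 2.17 from 6 to 7 weeks (SE 0.39; adjusted p = 0.0287). At 1448249_at the ratios were 1.38, 1.71 and 1.64 at 3 weeks, 1.40, 1.41 and 1.82 at 4 weeks, 0.833 and 0.851 at 5 weeks, 0.562, 0.785 and 0.635 at 6 weeks and 0.995, 0.958 and 1.0 at 7 weeks. It fell by 0.90 from 3 to 5 weeks (SE 0.17; adjusted p = 0.0178), by 1.26 to 6 weeks (SE 0.16; 0.000668) and by 0.67 to 7 weeks (SE 0.16; 0.0224). The first of these was lost without 3 weeks B, 5 weeks A or 5 weeks B (adjusted p up to 0.105) and the last without 3 weeks B or C or any 7-week array (up to 0.0748).

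The other pair of Gpd1 probe sets was called in no comparison. At 1439396_x_at the ratios ran from 0.646 to 1.29 with every age overlapping every other, and no change was called (3 to 6 weeks −0.03 (SE 0.31), adjusted p = 0.964). At 1456732_at the signal was under the filter, with its second-highest level at 174 of the recovered steps against the limit of 200, so it was not among the 15 tested. Its ratios were 0.724, 0.610 and 0.943 at 3 weeks, 1.04, 1.72 and 0.956 at 4 weeks, 0.910 and 2.16 at 5 weeks, 0.120, 1.77 and 0.818 at 6 weeks and 2.32, 1.21 and 2.31 at 7 weeks. The spread within an age was wide. Its mean log2 ratio was lowest at 6 weeks and highest at 7 weeks, and the difference between these in a fit without the filter was 1.74 (SE 0.79; adjusted p = 0.407). The Pearson correlation over the arrays was 0.894 between 1416204_at and 1448249_at, 0.512 between 1416204_at and 1456732_at, and 0.0147 between 1416204_at and 1439396_x_at.

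From week to week, no probe set of the set was called between 3 and 4 weeks, 4 and 5 weeks or 5 and 6 weeks by limma, where 0.152%, 0.752% and 0.281% of all tested probe sets were. At an unadjusted p under 0.05 the counts were 1, 8 and 3 of 15, against 10.3%, 14.9% and 10.5% of all. All 15 had a lower mean at 5 weeks than at 4 weeks, with a median of −0.65 against −0.01 over all tested probe sets. In 9 of the 15 both 5-week arrays lay below all 4-week arrays, as in 17.7% of all probe sets. The values nearest the threshold were those of Gpd1 at 1448249_at (−0.86 (SE 0.17), adjusted p = 0.0501) and Slc2a4 at 1415959_at (−1.12 (SE 0.25), 0.063). Without 6 weeks A 3 probe sets were called between 4 and 5 weeks, without 3 weeks A 2 and without 6 weeks B 1, and in the other fits that left out 1 array none.

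Between 3 and 6 weeks 6 of the 15 probe sets fell, in Gpd1, Slc2a4, Fabp4 and Lipe, and none rose, where 4.58% of all probe sets fell. In 9 of 15 the 6-week arrays all lay below the 3-week arrays, against 12% of all. Between 3 and 5 weeks 1 fell, Gpd1 at 1448249_at, where 1.24% of all did. Between 3 and 7 weeks 6 fell, in Fabp4, Gpd1, Adipoq and Lpl, against 2.6% of all, and in 10 of 15 the 7-week arrays all lay below the 3-week arrays, against 9.84% of all. The median change was −0.32 between 3 and 6 weeks and −0.43 between 3 and 7 weeks, beside 0.07 and 0.08 over all tested probe sets. These comparisons share the 3-week arrays. The count for 3 and 6 weeks was 4 without 3 weeks A, 3 weeks C or 6 weeks A, and that for 3 and 7 weeks was 2 without 3 weeks B, 3 weeks C, 7 weeks B or 7 weeks C and 4 without 3 weeks A. Without 7 weeks A it was 3, of which 2 were falls and 1 the rise of Lep.

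**Figure D3:**
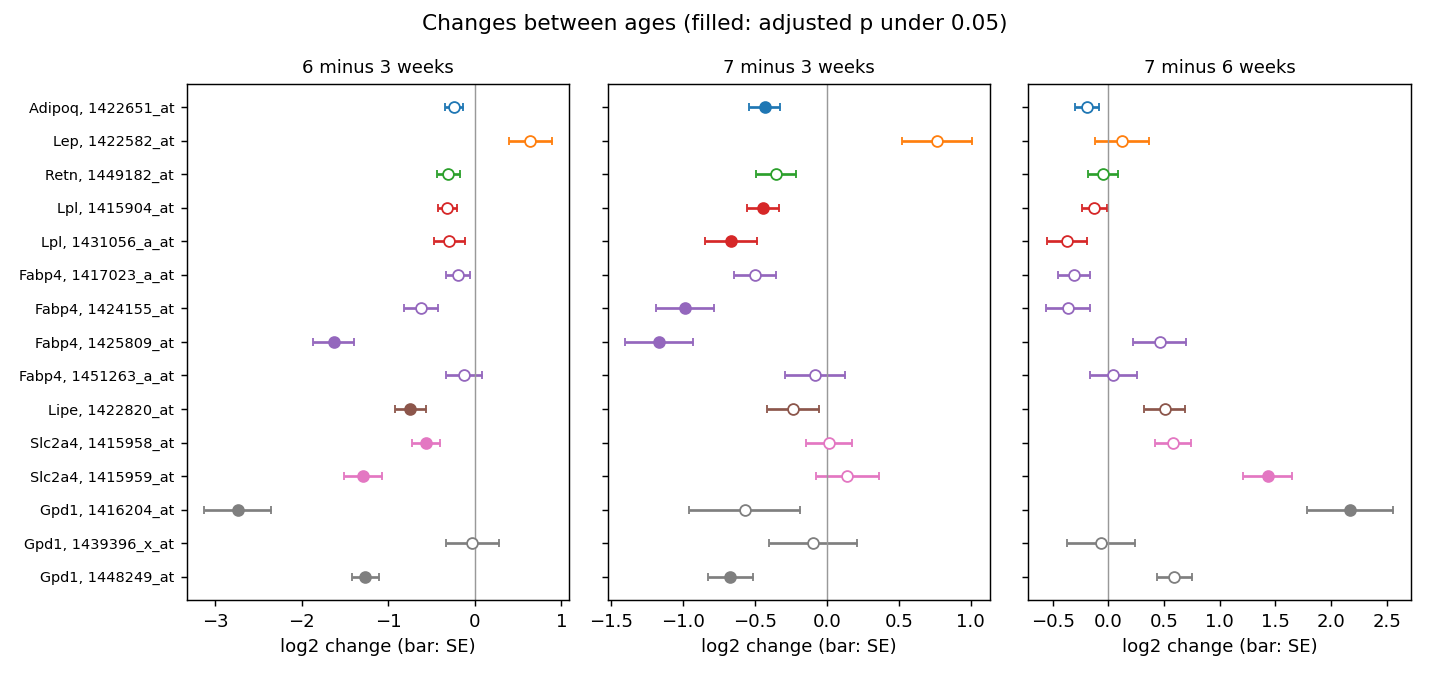
Log2 change of the 15 tested probe sets between 6 and 3, 7 and 3, and 7 and 6 weeks, with bars of 1 SE of the limma fit; filled points have an adjusted p under 0.05. Gpd1 at 1416204_at and 1448249_at and both Slc2a4 points lie to the left between 3 and 6 weeks and to the right between 6 and 7 weeks, while Gpd1 at 1439396_x_at lies close to 0 and the points of Adipoq and Lpl lie to the left of 0 in all 3 panels.

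Between 6 and 7 weeks 2 of 15 rose, Gpd1 at 1416204_at and Slc2a4 at 1415959_at, where 0.828% of all probe sets did. Both calls were lost without any 1 of the 7-week arrays, and that of Gpd1 also without 6 weeks B (adjusted p up to 0.109 for Gpd1 and 0.0634 for Slc2a4). By their means, the 6-week arrays also stood apart in controls of RNA quality. For actin, the control probe sets at the 5' end minus those at the 3' end averaged, in log2, 0.07, 0.20, −0.21, −0.44 and 0.11 at 3, 4, 5, 6 and 7 weeks, and that of pyruvate carboxylase −0.09, 0.33, −0.95, −2.37 and 0.82. Both were lowest at 6 weeks and next lowest at 5 weeks. The means of Gpd1 at 1416204_at and 1448249_at, of both Slc2a4 probe sets and of Lipe were also lowest at 6 weeks and next lowest at 5 weeks. Of the probe sets called lower from 3 to 6 weeks, only Fabp4 at 1425809_at differed in this, being next lowest at 7 weeks. The order of 3, 4 and 7 weeks was not the same in all of these probe sets and controls. The actin value was −0.46, −0.79 and −0.08 on 6 weeks A, B and C, and that of pyruvate carboxylase −2.78, −2.51 and −1.81. On the latter 6 weeks C also lay below every array of the other ages, of which 5 weeks A was the lowest at −1.25. On actin 6 weeks C lay above 5 weeks A (−0.16) and 5 weeks B (−0.26). Pyruvate carboxylase is itself an enzyme that adipocytes use in making fat, but the value given is a difference between the ends of its transcript and not its level. Without 6 weeks A and B, which leaves 6 weeks C as the only array of its age, the fall from 3 to 6 weeks was 2.02 for Gpd1 at 1416204_at (adjusted p = 0.00482), 1.31 at 1448249_at (0.012) and 1.06 for Slc2a4 at 1415959_at (0.0399), all still called, while that of Lipe was not (−0.64, adjusted p = 0.126). Without them no probe set was called between 6 and 7 weeks (Gpd1 at 1416204_at 1.45, adjusted p = 0.1; Slc2a4 at 1415959_at 1.20, adjusted p = 0.151). What part RNA quality has in these changes was not tested.

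**Figure D4:**
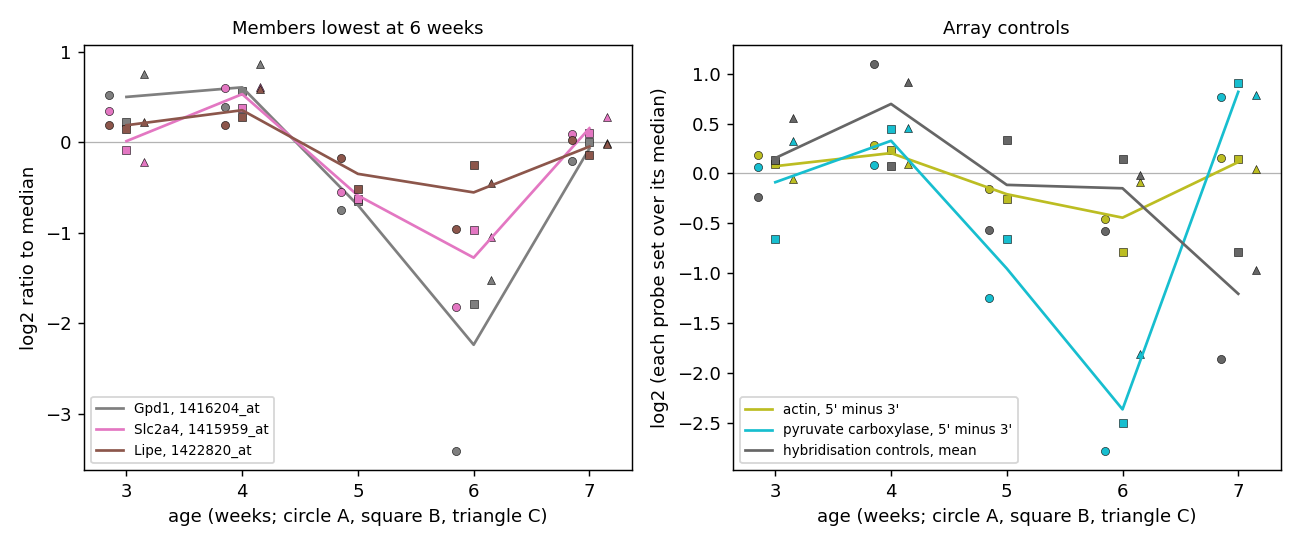
Left, log2 ratio to the median of Gpd1, Slc2a4 and Lipe (1 probe set each) against age in weeks; right, the 5' minus 3' log2 values of the actin and pyruvate carboxylase controls and the mean of the hybridisation controls; circles, squares and triangles are arrays A, B and C and lines join the means. All lines on the left and both 5' minus 3' lines on the right are lowest at 6 weeks, and the hybridisation controls are lowest at 7 weeks.

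The hybridisation controls, RNA spikes added before hybridisation, averaged 0.15 ± 0.40 (SD, n = 3) at 3 weeks and −1.21 ± 0.58 at 7 weeks. With their mean as a covariate no probe set of the set was called between 3 and 7 weeks (Adipoq −0.37, adjusted p = 0.275, Fabp4 at 1424155_at −1.16, adjusted p = 0.0889) and Lep was no longer called relative to Adipoq (adjusted p = 0.0698), while 5 of the 6 calls between 3 and 6 weeks were kept. Over all 18480 tested probe sets the covariate took the calls between 3 and 7 weeks from 1580 to 352. Those between 3 and 6 weeks went from 2536 to 2258. The loss of calls between 3 and 7 weeks was thus not particular to this set. Spikes and age move together here, and their part in the changes was not tested.

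The gene means were correlated with each other over the 14 arrays. For Fabp4 and Gpd1 they average probe sets that did not move alike. Lipe and Gpd1 had a Pearson correlation of 0.943, Lipe and Slc2a4 0.897 and Slc2a4 and Gpd1 0.881, and Fabp4 and Lpl had 0.910. Adipoq and Lpl had 0.776 and Adipoq and Slc2a4 0.0944, while Adipoq and Lep had −0.568. All points share the arrays and the ages, so these values describe a like course and nothing more. Among all tested probe sets that name 1 gene, the 3 with the highest correlation were taken as most like each gene. For Adipoq these were Hibch (0.895), an enzyme of valine breakdown, Dbi (0.890), an acyl-CoA binding protein, and Lpl (0.886). For Lpl they were Mdh1, a malate dehydrogenase (0.953), Gng11 (0.943) and Fabp4 (0.938), and for Fabp4 they were Lpl (0.953), Ndufb3 (0.936) and Afg3l2 (0.929). For Gpd1 they were Akt2, a kinase of insulin signalling (0.952), Lipe (0.943) and Mrps5 (0.930). Lipe was most like Kcnk3 (0.953), a potassium channel also used here as a brown adipocyte marker, Akt2 (0.938) and Hoxc6 (0.934). Slc2a4 was most like Sh2b3 (0.962), Ubr2 (0.951) and Cspg4 (0.948). Retn was most like the mitochondrial genes Timm23 (0.956), Mrpl27 (0.949) and Pdhb (0.945), and Lep, with the lowest values, like Uvrag (0.883), Srpx (0.846) and Ube2e2 (0.843).

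Other genes of adipocyte function were given as gene means, where 10.9% of the 10672 genes were called over the 5 ages, 4.29% lower and 9.81% higher at 6 than at 3 weeks, and 2.99% lower and 7.12% higher at 7 than at 3 weeks. The median change over all genes was 0.07 between 3 and 6 weeks and 0.09 between 3 and 7 weeks. Of 10 genes of lipolysis and its control, 5 fell and 1 rose from 3 to 6 weeks and 2 fell from 3 to 7 weeks (median −0.55 and −0.27). Prkaca, the catalytic subunit of protein kinase A that acts upstream of lipolysis, fell by 0.53 from 3 to 6 weeks (SE 0.11; adjusted p = 0.0113). Acvr1c, an activin receptor of adipocytes, fell by 0.99 (SE 0.18; 0.00447), and Abhd5, the activator of adipose triglyceride lipase, by 0.74 from 3 to 7 weeks (SE 0.14; 0.00718).

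In the lists of storage, 2 of 9 lipid droplet genes fell and 1 rose from 3 to 6 weeks, and 2 fell from 3 to 7 weeks (median −0.25). Cidea, a droplet protein also used as a brown fat marker, fell by 1.43 (SE 0.30; adjusted p = 0.0132), and Bscl2, seipin of droplet assembly, by 0.44 (SE 0.12; 0.0458), while Plin5, a perilipin of oxidative cells, fell by 1.02 from 3 to 6 weeks (SE 0.23; 0.0149). Of 13 genes of glycerol and triglyceride synthesis, 1 fell and 2 rose from 3 to 7 weeks (median −0.07). Gpam, which adds the first acyl chain to glycerol-3-phosphate, fell by 0.54 (SE 0.13; 0.0256), and Mogat2, a monoacylglycerol acyltransferase, rose by 3.11 (SE 0.48; 0.00242). Dgat2, which makes triglyceride, passed the F test (adjusted p = 0.0163), with mean ratios of 1.40 at 4 weeks and 0.820 at 6 weeks.

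Of 15 genes of fatty acid uptake and activation, 2 fell from 3 to 7 weeks and none rose (median −0.19). These were Apoc1 (−0.99, SE 0.14; adjusted p = 0.00145), an apolipoprotein, and Cav1 (−0.70, SE 0.13; 0.00577), caveolin of the adipocyte membrane. Fabp5, a fatty acid binding protein, fell by 0.62 from 3 to 6 weeks (SE 0.17; 0.0318). Of 18 genes of insulin signalling and glucose uptake, 2 fell and 1 rose from 3 to 6 weeks, and 1 rose from 3 to 7 weeks (median −0.13). Grb10, an adaptor that restrains insulin signalling, fell by 0.79 (SE 0.12; 0.00161) and Akt2 by 0.97 (SE 0.21; 0.0122) from 3 to 6 weeks, and Slc2a1, the glucose transporter GLUT1, rose by 0.66 from 3 to 7 weeks (SE 0.19; 0.0464).

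Of 17 adipogenic transcription factors, 4 fell and 1 rose from 3 to 7 weeks (median −0.11). Esrra, a nuclear receptor of mitochondrial genes, fell by 0.63 (SE 0.16; adjusted p = 0.0273), and Klf5, a factor of fat and of epithelium, rose by 0.73 (SE 0.14; 0.00886). Mlxipl, the carbohydrate response factor ChREBP, had mean ratios of 1.39 at 4 weeks, 0.686 at 6 weeks and 1.20 at 7 weeks, and rose by 0.81 from 6 to 7 weeks (SE 0.15; 0.0436). Of 16 other secreted proteins of adipose tissue, 3 fell and 2 rose from 3 to 7 weeks (median −0.13). Agt, angiotensinogen, fell by 4.23 (SE 0.44; 0.000238), Lcn2, a lipocalin that epithelium also makes, rose by 2.52 (SE 0.19; 6.84e-05), and Igf1 fell by 0.68 from 3 to 6 weeks (SE 0.14; 0.00808). None of 5 adipokine receptors was called in limma's F test, with 1 at an unadjusted p under 0.05. Of 7 genes of the alternative complement pathway, to which Cfd belongs, 1 rose and 1 fell from 3 to 7 weeks (median 0.05). Cfb, complement factor B, alone passed the F test and fell by 0.65 (SE 0.13; adjusted p = 0.0103). Cd55, a complement regulator named here after its values were seen, rose by 1.05 (SE 0.27; 0.0298).

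Markers of other cells moved with age beside these changes. Of 19 luminal epithelial markers all 19 rose and none fell from 3 to 7 weeks (median 2.19), and their mean log2 ratio ran from −2.26 to −1.58 on the 3-week arrays and from 0.44 to 0.66 on those of 7 weeks. Of 12 brown adipocyte markers 9 fell from 3 to 7 weeks and none rose (median −1.54), with array means of 1.08 to 1.49 at 3 weeks and −0.97 to −0.29 at 7 weeks. The array means of the 8 genes of hormones and lipid storage were 0.10 to 0.16 at 3 weeks, 0.19 to 0.34 at 4 weeks, −0.24 to −0.09 at 5 weeks, −0.47 to −0.21 at 6 weeks and −0.18 to −0.06 at 7 weeks. Basal epithelial markers rose in 4 of 10 (median 0.68) and fibroblast and preadipocyte markers rose in 3 and fell in 2 of 15 (median 0.44). From 3 to 7 weeks 1 of 13 macrophage markers rose and 1 fell (median 0.39), 1 of 10 endothelial markers rose (median −0.22), and none of 7 lymphocyte markers was called in limma's F test (1 at an unadjusted p under 0.05). Of 8 skeletal muscle markers, which matter for Slc2a4, none was called in limma's F test (1 at an unadjusted p under 0.05), and their array means overlapped between all ages. Ratios hold no level, so how much of any cell type was in a gland is not known from them, and the part of these cells in the changes was not tested.

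**Figure D5:**
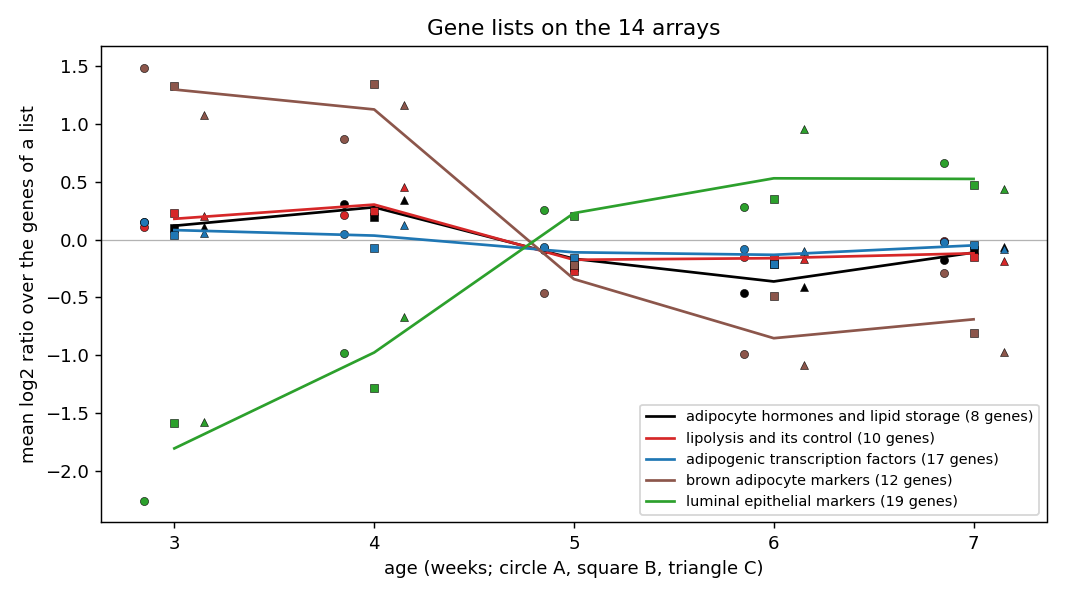
Mean log2 ratio over the genes of 5 lists on each array against age in weeks; circles, squares and triangles are arrays A, B and C and lines join the means. The 8 genes of adipocyte hormones and lipid storage move between −0.47 and 0.34, brown adipocyte markers between −1.09 and 1.49, and luminal epithelial markers between −2.26 and 0.96.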

How the data were processed

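RNA of 14 pools of mammary glands was hybridised to 1 array each. The deposited values are a ratio of each signal to the probe set's own median, as read from the values: of 22690 probe sets, 98.5% had a median over the arrays of 1 within 0.001. The sources used here do not give the software that made the signals or any scaling before that step. Ratios were taken to log2 with no offset, and no normalization was added, as the array medians spanned 0.0938 (log2), under the limit of 0.2. Where low values were whole multiples of an array's step, the level before division was recovered (37.9% of probe sets). The 64 control probe sets and 4146 under 200 steps on all arrays or all but 1 were left out, leaving 18480. In the platform annotation 20380 probe sets named 1 gene, 691 several and 1555 none.

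All 14 arrays entered 1 limma model (version 3.58.1, R 4.3.3) of age as a factor, with empirical Bayes moderation, two-sided tests and Benjamini-Hochberg adjustment within each comparison. For gene lists, the log2 ratios of a gene's probe sets were averaged. The fit was tested on simulated data. Python 3.11.15 served for tables (pandas 2.3.3, numpy 2.4.6) and figures (matplotlib 3.10.9).

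The genes, the lists and the tests were chosen with earlier results of these data known. Named outside the set were, for each list, up to 3 genes with the smallest adjusted p among those passing the F test, and for each gene the 3 probe sets of other genes with the highest correlation. The alternatives were another array normalization, an offset of 0.1, no filter, gene means, the replicate block, hybridisation controls as a covariate, 2 ages alone in the fit, the fit without 6 weeks A and B, and leaving out each array.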

Additional observations from a re-analysis of the deposited data

How the results depend on the processing

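Of 24 called results of single probe sets, 7 were called under every alternative: Gpd1 at 1416204_at and 1448249_at and Fabp4 at 1425809_at, each from 3 to 6 weeks and in the F test, and Slc2a4 at 1415959_at in the F test. None was reversed. The number of probe sets called in the F test (9) was 4 with the hybridisation controls as a covariate and 5 genes with gene means, and from 5 to 8 with 1 array left out. Between 4 and 5 weeks the count of 0 became 1 with each array centred on its median, 2 with quantile normalization, an offset of 0.1 or without 6 weeks A and B, and from 0 to 3 with 1 array left out. Between 6 and 7 weeks the count of 2 became 0 with only the 2 ages in the fit, with the covariate or without 6 weeks A and B, 1 with gene means, and from 0 to 2 with 1 array left out. Between 3 and 5 weeks the count of 1 became 0 with 2 ages alone or gene means, 2 without 6 weeks A and B, and from 0 to 2 with 1 array left out. Between 3 and 6 weeks the count of 6 became 3 with 2 ages alone, and from 4 to 6 with 1 array left out. Between 3 and 7 weeks the count of 6 became 2 with 2 ages alone, 0 with the covariate, 3 with gene means, and from 2 to 7 with 1 array left out. Relative to Adipoq the count of 2 became 0 with the covariate, 1 with gene means, and from 1 to 3 with 1 array left out. Calls over all 18480 tested probe sets moved too. In the F test they went from 1912 to 1037 with the covariate. Between 4 and 5 weeks 139 became 176 with centring, 270 with quantile normalization and 172 with the offset. Between 6 and 7 weeks 177 became 10 with 2 ages alone and 18 with the covariate. Between 3 and 7 weeks 1580 became 611 and 352 in the same order. With 2 ages alone 671 became 58 between 3 and 5 weeks and 2536 became 813 between 3 and 6 weeks. Gene means give 1 value for a gene in place of several, and 2 ages alone or 1 array fewer leave fewer arrays for the spread. For the others the cause was not tested.

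The letters A, B and C were not taken as pairs, since the labels tie no letter to a mouse, litter or day. Over 26 pairs of arrays with the same letter, the correlation of deviations from the age means ran from −0.0686 to 0.0852, none over 0.1. Such values show no strong common shift, but cannot show whether a letter marks a shared batch. With the letters as a replicate block the counts were 7 in the F test, 1 between 3 and 5 weeks, 5 between 3 and 6 weeks, 6 between 3 and 7 weeks, 2 between 6 and 7 weeks and 2 relative to Adipoq, and 0 in the other 3 comparisons.

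Groups of 2 or 3 arrays limit all of these values. Dividing by the median took away the signal level, so a probe set near background was recognised only where its steps were recovered, and Lep, Adipoq, Retn and Lipe rest on 1 probe set each.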
